A study of Homo sapiens with 3 samples.

Results

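The MTRNR2L genes are nuclear copies of MT-RNR2, the mitochondrial gene for the large ribosomal RNA. The 8 genes described here, MTRNR2L1, MTRNR2L2, MTRNR2L3, MTRNR2L6, MTRNR2L8, MTRNR2L9, MTRNR2L10 and MTRNR2L12, were taken by symbol from a table of 57268 gene identifiers. That table holds 13 MTRNR2L symbols, and the 8 are those whose mean level over the libraries was 1 CPM or more (reads per 1000000 reads of the library, after scaling of the library sizes). Just inside that level was MTRNR2L6 with a mean of 1.03 CPM, and just outside it was MTRNR2L4 with 0.652 CPM. The genes were selected on their read counts in these libraries, with their ratios between libraries known, so their values are a description and carry no test.

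RNA from the embryonic kidney line HEK293T, which is human, was sequenced with a single library for each of 3 groups. The first came from cells overexpressing both ADAR2 and SRSF9, the second from cells overexpressing ADAR2 alone, and the third, the control, from cells without overexpression. ADAR2 is an adenosine deaminase that edits paired RNA, SRSF9 belongs to the SR proteins, which guide splicing, and the study asked how SRSF9 bears on editing by ADAR2. The labels name no separate cultures and no control for overexpression as such, so a difference below is between 2 libraries, with no replicate check. Intervals are 95% counting intervals and cover counting error only.

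Pieces of mitochondrial DNA have been copied into nuclear chromosomes many times during evolution. Such copies lie outside the mitochondrion and, where they are transcribed, depend on the nuclear machinery. MT-RNR2 also holds a short open reading frame for humanin, a secreted peptide reported to protect cells from death, and the MTRNR2L genes were named for humanin-like reading frames in the copies. Whether these nuclear frames are translated is not settled. GENCODE release 29 lists 6 of the 8 genes as protein-coding and MTRNR2L2 and MTRNR2L9 as processed pseudogenes, while RefSeq lists all 8 as pseudogenes.

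The humanin stretch is shown because it is the part for which the genes are named and because it shows how alike the copies are. It covers bases 963 to 1037 of the MT-RNR2 transcript, which has 1559 bases. In the 6 genes with a coding stretch in GENCODE release 29 it is that coding stretch with its stop codon. Sequences are from the transcripts of that release, in the sense direction, 5′ to 3′, with bases that differ from MT-RNR2 in capitals.
MT-RNR2: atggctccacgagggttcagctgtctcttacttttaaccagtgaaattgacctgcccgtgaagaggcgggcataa
MTRNR2L12: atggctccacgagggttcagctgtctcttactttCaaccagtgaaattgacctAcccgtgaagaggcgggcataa
MTRNR2L8: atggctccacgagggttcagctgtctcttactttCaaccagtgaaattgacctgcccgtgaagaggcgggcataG
MTRNR2L1: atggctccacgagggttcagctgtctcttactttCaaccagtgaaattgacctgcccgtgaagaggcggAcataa
MTRNR2L2: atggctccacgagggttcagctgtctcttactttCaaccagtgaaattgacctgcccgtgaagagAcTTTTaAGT
MTRNR2L9: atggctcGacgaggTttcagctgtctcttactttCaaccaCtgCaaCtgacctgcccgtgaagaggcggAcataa
MTRNR2L3: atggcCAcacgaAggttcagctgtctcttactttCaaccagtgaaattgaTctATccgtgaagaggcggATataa
MTRNR2L6: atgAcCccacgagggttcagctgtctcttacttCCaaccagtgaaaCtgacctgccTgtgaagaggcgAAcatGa
MTRNR2L10: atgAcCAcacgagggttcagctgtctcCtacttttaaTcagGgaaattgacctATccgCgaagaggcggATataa

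All 8 copies begin with the same start codon as humanin and none has an inserted or deleted base in the stretch. MTRNR2L12, MTRNR2L8 and MTRNR2L1 differ from MT-RNR2 at 2 bases each, MTRNR2L9 at 7, MTRNR2L2, MTRNR2L3 and MTRNR2L6 at 9 and MTRNR2L10 at 11. One substitution, T35C (counted from 1 at the first base shown, MT-RNR2 base first), is found in 7 of the 8, with MTRNR2L10 the exception. G70A is found in 5. In MTRNR2L2 8 of the 9 differences lie in its last 10 bases, and its first 65 bases are identical to those of MTRNR2L8 and MTRNR2L1.

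Over whole transcript models the copies fall into near and distant relatives of the mitochondrial gene. MTRNR2L12, on chromosome 3, matched MT-RNR2 at 95.1% of 1049 aligned positions, and MTRNR2L8, on chromosome 11, at 93.1% of 1303. MTRNR2L1, on chromosome 17, was at 88.6% and MTRNR2L6, on chromosome 7, at 85.3%. MTRNR2L10, on chromosome X, was at 81.2% and MTRNR2L3, on chromosome 20, at 79.6%. The models of MTRNR2L2, on chromosome 5, and MTRNR2L9, on chromosome 6, have only 87 and 75 bases in this release. Their identities (98.5% over 65 bases and 90.7% over 75) thus describe no more than the humanin stretch. For MTRNR2L2 the alignment covers only part of that stretch. Over all its 75 bases MTRNR2L2 had 9 differences and MTRNR2L9 had 7. Each of the 8 has a single exon.

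Stretches shared between copies bear on how reads can be assigned. Of the 50-base windows of MTRNR2L12, 15.3% occur without a mismatch in MT-RNR2 and 23.5% in another of the 8 genes. For MTRNR2L8 the shares were 8.93% and 19.6%. The short model of MTRNR2L2 has 38 windows, with 0 in MT-RNR2 and 42.1% in another of the 8, and that of MTRNR2L9 has 26, with 0 in either. In RefSeq these 2 genes have 611 and 448 bases, and bases outside the short models were not compared. Their shares thus do not describe all the sequence over which reads may have been counted. Each of MTRNR2L10, MTRNR2L3, MTRNR2L1 and MTRNR2L6 had under 1% of its windows in MT-RNR2 (13, 0, 11 and 6 windows). Neither the read length nor the treatment of reads with several matches is stated in the labels or notes used here, so how reads divide between near-identical copies, and between them and the mitochondrial transcript, is uncertain. MT-RNR2 itself was not analysed here, and the 13 mitochondrial messenger RNAs stand in for mitochondrial RNA below.

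The libraries held 97875935 reads with ADAR2 and SRSF9, 132887974 with ADAR2 alone and 152878282 in the control. The overexpressed genes followed the labels: ADARB1, which encodes ADAR2, had 1308303, 2161556 and 17547 reads in that order, and SRSF9 had 1753179, 49544 and 57545. The 8 genes together took 0.0130% of reads with both proteins, 0.0213% with ADAR2 alone and 0.0226% in the control.

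The copies differed widely in abundance, and the order was led by the same genes in each library. MTRNR2L12 had 7515 reads (78.4 CPM) with ADAR2 and SRSF9, 17036 (127 CPM) with ADAR2 and 20575 (133 CPM) in the control. MTRNR2L2 had 2721 reads (28.4 CPM), 5970 (44.5 CPM) and 7551 (48.9 CPM), and MTRNR2L8 had 1653 (17.2 CPM), 3511 (26.2 CPM) and 4305 (27.9 CPM) in those libraries. In all 3 genes the library with both proteins was lowest and the control highest. The intervals of the levels did not overlap between the library with both proteins and either of the others. With this many reads such intervals are narrow, and the share of all genes separated in this way is not given.

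The remaining 5 genes were weakly read. MTRNR2L9 had 402 reads (4.19 CPM) with both proteins, 806 (6.0 CPM) with ADAR2 and 1049 (6.79 CPM) in the control. MTRNR2L10 had 210 reads (2.19 CPM), 390 (2.90 CPM) and 448 (2.90 CPM). Both were lowest in the library with both proteins, and MTRNR2L10 stood at the same level in the other two.

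MTRNR2L3 had 96 reads (1.0 CPM) with both proteins, 226 (1.68 CPM) with ADAR2 and 218 (1.41 CPM) in the control. MTRNR2L6 had 80 reads (0.834 CPM), 136 (1.01 CPM) and 190 (1.23 CPM). MTRNR2L1 had 36 reads (0.376 CPM), 226 (1.68 CPM) and 265 (1.72 CPM). MTRNR2L1 was thus read as often as MTRNR2L3 with ADAR2 alone, but it was the least read of the 8 with both proteins.

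**Figure D1:**
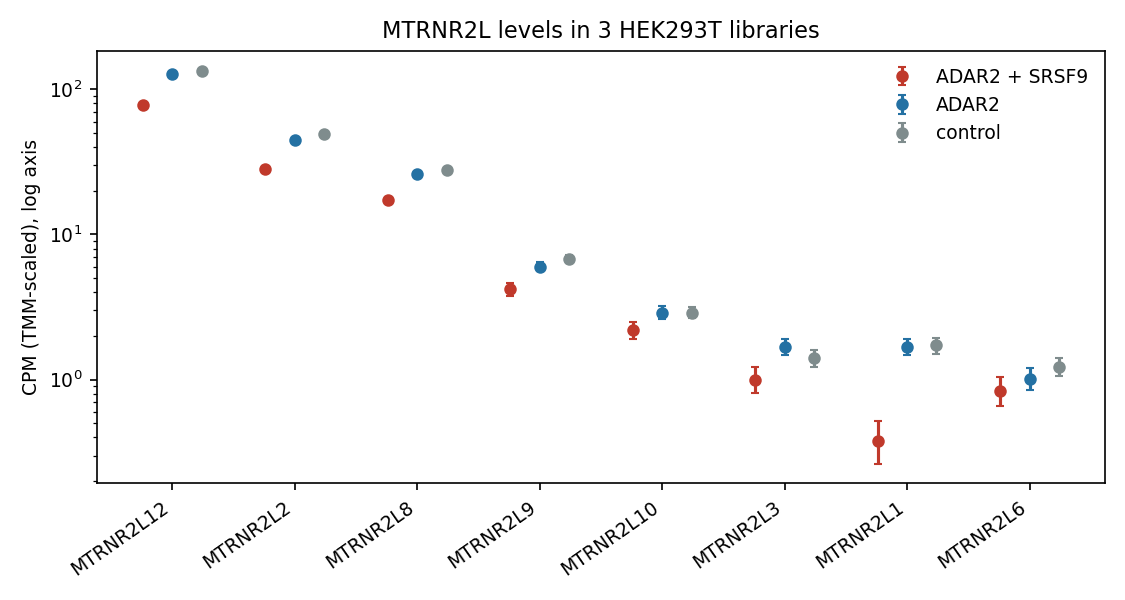
Levels of the 8 MTRNR2L genes in CPM (log axis) in the library with ADAR2 and SRSF9, the ADAR2 library and the control, 1 library each. Bars are exact 95% Poisson intervals of the counts. The library with both proteins is lowest for every gene, with the widest gap at MTRNR2L1 (0.376 CPM against 1.68 CPM with ADAR2).

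Levels of different genes can be ranked only per length, and the length depends on the gene model. With RefSeq lengths MTRNR2L12 came first, at 75.5 CPM per kilobase with both proteins, 122 with ADAR2 and 128 in the control, ahead of MTRNR2L2 at 46.5, 72.8 and 80.0. With GENCODE release 29 lengths MTRNR2L2, whose model has 87 bases against 611 in RefSeq, came first at 326, 511 and 562 CPM per kilobase. The gene model behind the authors' counts is not stated in the labels or notes used here, and 1 of the 8 identifiers has the same version number in release 29. With either set of lengths MTRNR2L12, MTRNR2L2, MTRNR2L8 and MTRNR2L9 were the leading 4 genes in each library. Neither source of lengths gave the other 4 one fixed order over the 3 libraries.

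The copies were lower with both proteins than with ADAR2 alone. Summed over the 8 genes, the level was 133 CPM with both proteins and 211 CPM with ADAR2 alone, a ratio of 0.629 (0.616 to 0.642). All 8 genes were lower with both proteins, as were 46.3% of all genes whatever their interval. In 7 of the 8 the counting interval excluded 1, and the share of all genes with such an interval is not given. Bulk RNA cannot tell fewer cells with a transcript from less of it per cell. The ratio was 0.618 (0.601 to 0.635) for MTRNR2L12, 0.638 (0.610 to 0.668) for MTRNR2L2 and 0.659 (0.622 to 0.699) for MTRNR2L8. MTRNR2L3 was at 0.595 (0.464 to 0.759). These 4 genes, together with MTRNR2L1, were lower by 1.5-fold or more with an interval that excluded 1.

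That makes 5 of 8 genes, where 2.52% of the 16072 genes with a mean CPM of 1 or more were lower by that much. At 0.376 and 0.834 CPM with both proteins, MTRNR2L1 and MTRNR2L6 reached that mean only through the other libraries. The median log2 ratio was -0.62 over the 8 genes and 0.01 over all 16072. MTRNR2L12 and MTRNR2L8 were already known as low in this contrast when the genes were chosen, so the count is not support for a family-wide difference. MTRNR2L9 at 0.698 (0.618 to 0.788) and MTRNR2L10 at 0.754 (0.635 to 0.894) were lower by less than 1.5-fold. MTRNR2L6 was at 0.824 with an interval that held 1 (0.617 to 1.09).

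MTRNR2L1 stood apart from the other copies. It was at 0.223 times its ADAR2 level (0.152 to 0.318), 4.48-fold lower, the only one of the 8 genes lower by 2-fold or more, where 0.212% of all genes were. It reached a mean CPM of 1 only through the ADAR2 library and the control, so that share is no yardstick for it. The intervals of the other 7 genes all met that of the summed level, and that of MTRNR2L1 did not. Of the reads of the 8 genes MTRNR2L1 took 0.283% with both proteins (0.198 to 0.392, exact binomial interval), 0.799% with ADAR2 (0.698 to 0.909) and 0.766% in the control (0.677 to 0.863). In contrast MTRNR2L12 held 59.1%, 60.2% and 59.5% of those reads, and MTRNR2L2 21.4%, 21.1% and 21.8%.

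**Figure D2:**
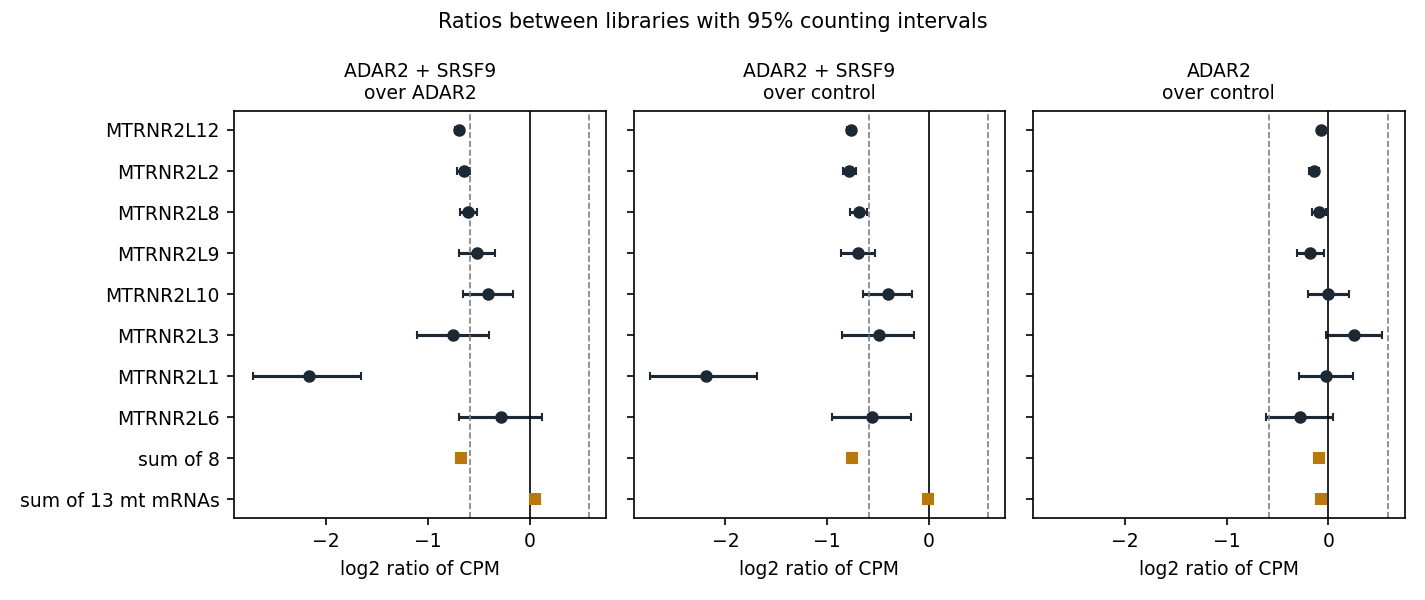
Log2 ratios of CPM for each MTRNR2L gene, the sum of the 8 and the sum of 13 mitochondrial messenger RNAs (mt mRNAs), in the 3 comparisons. Bars are 95% counting intervals, dashed lines mark 1.5-fold. With both proteins over ADAR2 the 8 genes lie at -0.28 or below and MTRNR2L1 at -2.15, while in ADAR2 over control they lie between -0.28 and 0.25.

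Against the control, the library with both proteins held less of these transcripts too. The summed level was 133 CPM with both proteins and 224 CPM in the control, a ratio of 0.592 (0.580 to 0.604). All 8 genes were lower, as were 51.0% of all genes whatever their interval. In each of the 8 the interval excluded 1, and the share of all genes with such an interval is not given. Of the 8, 5 were lower by 1.5-fold or more, where 2.43% of all genes were. Those 5 were MTRNR2L12 (0.589), MTRNR2L2 (0.581), MTRNR2L8 (0.619), MTRNR2L9 (0.618) and MTRNR2L1 (0.219). MTRNR2L1 reached a mean CPM of 1 only through the control and the ADAR2 library, so 2.43% is no yardstick for it. The ratio of MTRNR2L10 was 0.755 (0.638 to 0.892), which lay above the interval of the sum. Other classes of copies, described below, were low here too. The median log2 ratio was -0.69 over the 8 genes, -0.63 over 11 other nuclear copies of mitochondrial genes and -0.42 over 1085 processed pseudogenes. This comparison and the one above share the library with both proteins.

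ADAR2 alone went with little difference in these genes. The summed level was 211 CPM with ADAR2 and 224 CPM in the control, a ratio of 0.941 (0.926 to 0.956). No gene of the 8 was 1.5-fold apart, where 0.641% of all genes were lower and 0.622% higher by that much. MTRNR2L12 was at 0.953 times the control (0.934 to 0.972) and MTRNR2L2 at 0.910 (0.879 to 0.941), while MTRNR2L3 was at 1.19 (0.986 to 1.44). The direction is not settled: the median log2 ratio was -0.08, and it was 0.04 when a trend with GC content was removed, where MTRNR2L12 (0.06) and MTRNR2L8 (0.02) also turned positive.

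The mitochondrial messenger RNAs did not share the difference seen in the library with both proteins, while MT-RNR2 and MT-RNR1 were not analysed. Together the 13 mitochondrial messenger RNAs stood at 67132 CPM with both proteins, 64437 CPM with ADAR2 and 67756 CPM in the control. Their median log2 ratio for both proteins over ADAR2 was 0.03, and none was 1.5-fold apart. MT-ND6, the subunit of complex I encoded on the other strand of mitochondrial DNA from the rest, was furthest at -0.21 (1177 CPM with both proteins, 1363 CPM with ADAR2). MT-ND1, whose gene lies just beyond MT-RNR2 on the mitochondrial transcript, was at -0.03, with 3061 CPM and 3125 CPM. Set against the mitochondrial messenger RNAs of their own library, which needs no scaling between libraries, the 8 copies had 1975 reads per 1000000 mitochondrial reads with both proteins, 3271 with ADAR2 and 3306 in the control. The log2 ratio of that quantity was -0.73 (-0.76 to -0.70) for both proteins over ADAR2 and -0.01 (-0.04 to 0.01) for ADAR2 over control.

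Nuclear copies of other mitochondrial genes were lower in the same library. Of 175 such pseudogenes in the table, 11 had a mean CPM of 1 or more. Their median log2 ratio for both proteins over ADAR2 was -0.66, and 6 of the 11 were lower by 1.5-fold or more, where 2.52% of all genes were. One of the 6, MTND6P3, was at 0.699 CPM with both proteins and reached a mean of 1 CPM through the other libraries. MTND1P23, a copy of MT-ND1, had 3862 reads (40.3 CPM) with both proteins, 8540 (63.6 CPM) with ADAR2 and 9845 (63.7 CPM) in the control. Per 1000 reads of MT-ND1 these were 13.2, 20.4 and 18.4. MTND5P11 (log2 ratio -0.75), MTND6P4 (-0.72), MTND6P3 (-0.80), MTATP6P2 (-0.73) and MTATP8P1 (-1.32) were the others past 1.5-fold. The most abundant of these copies were not: MTATP6P1 stood at 567 CPM with both proteins and 669 CPM with ADAR2 (-0.24), and MTND2P28 at 603 CPM and 625 CPM (-0.05).

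Pseudogenes of nuclear origin were lower in that library too. The 1085 processed pseudogenes outside both lists, intronless copies of messenger RNAs, had a median log2 ratio of -0.46 for both proteins over ADAR2, and 27.9% of them were lower by 1.5-fold or more, against 0.408% of 12759 protein-coding genes (median 0.02). For ADAR2 over control the medians were -0.08 for the 8 MTRNR2L genes, 0.01 for the other nuclear copies and 0.04 for processed pseudogenes. The library with both proteins was also the shallowest, at 0.737 times the reads of the ADAR2 library. The part that depth, or any other property of this single library, has in the lower levels of the copies was not tested.

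**Figure D3:**
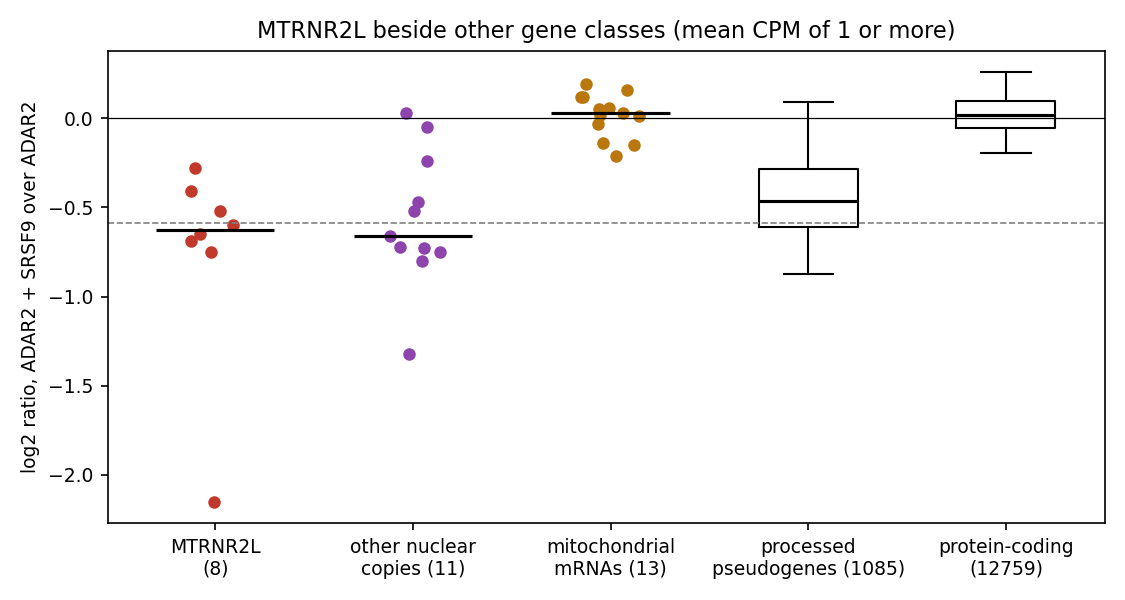
Log2 ratio of both proteins over ADAR2 by gene class, for genes with a mean CPM of 1 or more. Points are genes with a bar at their median, boxes show quartiles with whiskers at the 5th and 95th percentiles, and the dashed line marks 1.5-fold lower. The medians of the MTRNR2L genes (-0.62) and other nuclear copies (-0.66) lie below that of processed pseudogenes (-0.46), but these classes overlap. The median of mitochondrial mRNAs (0.03) lies near that of protein-coding genes (0.02).

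The ratios were also set beside likeness to the mitochondrial sequence, as a description with no test. Among the 6 MTRNR2L genes with long models, the log2 ratio of both proteins over ADAR2 was -0.69 for MTRNR2L12 at 95.1% identity, -0.60 for MTRNR2L8 at 93.1% and -2.15 for MTRNR2L1 at 88.6%. It was -0.28 for MTRNR2L6 at 85.3%, -0.41 for MTRNR2L10 at 81.2% and -0.75 for MTRNR2L3 at 79.6%. Among the 11 other nuclear copies, the 3 most like their mitochondrial gene were MTND1P23 (99.1%), MTATP6P1 (98.5%) and MTND2P28 (98.4%), at log2 ratios of -0.66, -0.24 and -0.05. The 3 least alike were MTATP6P2 (88.2%), MTND6P3 (89.0%) and MTND5P11 (93.0%), at -0.73, -0.80 and -0.75. Read level followed identity only at the top: MTRNR2L12 and MTRNR2L8 were the most read of the 6, but MTRNR2L10, at 81.2%, was read more often than MTRNR2L1.

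**Figure D4:**
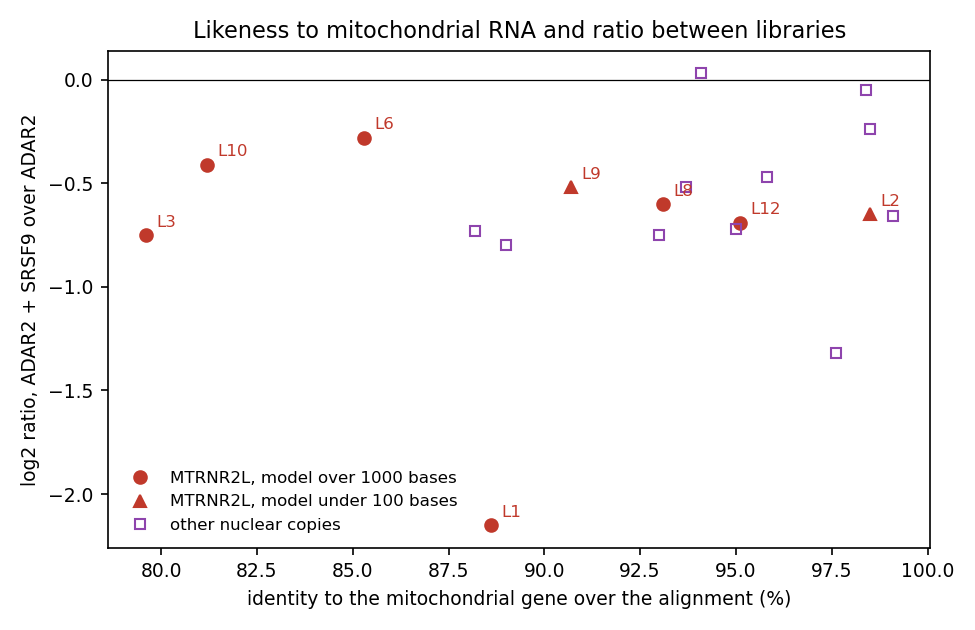
Log2 ratio of both proteins over ADAR2 against identity to the mitochondrial gene (percent of aligned positions) for the 8 MTRNR2L genes (labels without the MTRNR2 stem) and 11 other nuclear copies. MTRNR2L1 is lowest at -2.15, and the other 7 MTRNR2L genes lie between -0.28 and -0.75. The identity of MTRNR2L2 is over 65 bases that hold 1 of its 9 differences in the humanin stretch.

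The genes nearest to the summed MTRNR2L level in their pattern over the 3 libraries are all listed as pseudogenes. Likeness was the distance over the log2 ratios of both proteins over ADAR2 and of ADAR2 over control, among genes with a mean CPM of 10 or more. The nearest were EEF1A1P25 (distance 0.053), RP11-553P9.1 (0.069), MTND1P23 (0.085), NPM1P24 (0.089) and EIF4BP7 (0.090). EEF1A1P25 had 9.63 CPM with both proteins, 15.3 CPM with ADAR2 and 15.7 CPM in the control. GENCODE release 29 lists MTND1P23 as an unprocessed pseudogene and the other 4 as processed pseudogenes.

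Genes that act with humanin or on mitochondrial ribosomal RNA were described from lists of their own. With 2.52% of all genes lower by 1.5-fold for both proteins over ADAR2, a count of 0 in lists this short says little about them. Of 10 reported receptors and partners of humanin 7 had a mean CPM of 1 or more, and FPR2, FPR3 and IGFBP3 did not. None of the 7 was 1.5-fold apart in any comparison, and their median log2 ratio for both proteins over ADAR2 was -0.06. CNTFR, a subunit of a receptor complex reported for humanin, was furthest at -0.12, with 9.33 CPM with both proteins, 10.1 CPM with ADAR2 and 8.55 CPM in the control. BAX, the death effector that humanin is reported to bind, had 98.5, 103 and 87.7 CPM in those libraries, and IL6ST, the shared signalling subunit gp130, had 33.2, 31.9 and 32.7 CPM.

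Of 29 genes for mitochondrial transcription and for processing, modification, assembly and decay of the large ribosomal RNA, 28 had a mean CPM of 1 or more. None was 1.5-fold apart in any comparison, and the median log2 ratio was 0.05 for both proteins over ADAR2, 0.03 for both proteins over control and -0.04 for ADAR2 over control. MTG1, a GTPase of mitochondrial ribosome assembly, was furthest, with 9.99 CPM with both proteins and 7.53 CPM with ADAR2 (0.41). It had 6.82 CPM in the control. POLRMT, the mitochondrial RNA polymerase, had 139, 126 and 111 CPM in the 3 libraries, and LRPPRC, which stabilises mitochondrial messenger RNAs, had 229, 233 and 268 CPM.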

How the data were processed

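The values deposited by the authors are raw counts of reads for each gene. STAR, Picard, GATK and SAMtools and the build hg19 are named in the submitters' processing notes, without roles or versions. The counting program and its strand setting are not stated in the labels or notes used here. A directional kit was used on total RNA, per the labels' protocols.

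TMM scaling of library sizes used edgeR 4.0.16 (R 4.3.3; factors 0.979, 1.01 and 1.01 for both proteins, ADAR2 and control). Log2 ratios of CPM used a prior count of 0.5, and intervals of CPM ratios came from the Clopper-Pearson interval of the shared reads. Ratios per mitochondrial messenger RNA read used no prior count. Where they have an interval, it is a normal interval on the log scale from the Poisson errors of the counts. With 1 library per group no p-value is given. A floor of 3 counts is 0.0313, 0.0223 and 0.0194 CPM. Python 3.11.15, numpy 2.4.6, pandas 2.3.3, scipy 1.17.1, Biopython 1.88 (local alignment) and matplotlib 3.10.9 did the rest. GENCODE release 29 (GRCh38) gave types, lengths, GC content and sequences for 51802 of 57268 identifiers. RefSeq (GRCh38.p14) gave the other lengths. No coordinates are given, since the build differs. The calculation was tested on simulated counts.

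The genes, lists and settings were chosen with earlier results of these data known. All MTRNR2L symbols are named, the 5 genes nearest in pattern, and from each list the members past 1.5-fold or else the furthest. MT-ND1, MTATP6P1, MTND2P28, MTATP8P2, MTND4P12, MTND4P24, BAX, IL6ST, POLRMT and LRPPRC are named outside that rule, as examples chosen after their values were seen. The planned comparison with MT-RNR2 and MT-RNR1 used mitochondrial messenger RNAs instead. DESeq2 1.42.0 size factors were among the alternatives.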

Additional observations from a re-analysis of the deposited data

How the results depend on the processing

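For both proteins over ADAR2, all 8 genes stayed below 0 under plain totals, upper-quartile or DESeq2 scaling, TMM without mitochondrial, MTRNR2L, ADARB1 and SRSF9 reads, a prior count of 5 and GC trend removal. With plain totals the log2 ratio of the sum was -0.71 over ADAR2 and -0.80 over control, against -0.67 and -0.76. The 5 genes lower by 1.5-fold over ADAR2 became 3 at a mean CPM of 10, where only MTRNR2L12, MTRNR2L2 and MTRNR2L8 are left, 1 at 2-fold and 2 when the whole interval had to lie beyond 1.5-fold. Over control the 5 became 3 at a mean CPM of 10 and 1 at 2-fold. Of all 16072 genes, 34 were lower by 2-fold over ADAR2 and 41 over control. These are no yardstick for MTRNR2L1, the 1 gene left at 2-fold, which reached a mean CPM of 1 through the other libraries. Shares of all genes at a mean CPM of 10 or with the whole interval beyond 1.5-fold are not given, so those counts have no yardstick. Without MTRNR2L12 the log2 ratio per mitochondrial messenger RNA read was -0.69 over ADAR2, and -0.04 for ADAR2 over control. Of 144 single ratios under other settings, 136 stayed inside their counting interval. The comparisons with MT-RNR2 and MT-RNR1 were not run. No paired analysis was possible because each group has 1 library. Depth limits MTRNR2L6, MTRNR2L3 and MTRNR2L1 most, at 80, 96 and 36 reads with both proteins.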

Other observations

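The 5 MTRNR2L genes outside the 8 were scarcely read. MTRNR2L4, on chromosome 16, had 40 reads with both proteins, 99 with ADAR2 and 124 in the control, a ratio of 0.566 (0.382 to 0.825) for both proteins over ADAR2. MTRNR2L5 had 0, 0 and 4 reads, MTRNR2L7 had 1, 3 and 0, and MTRNR2L11 had 0, 0 and 2. MTRNR2L13 had 0 reads in each library. The floor of 3 counts, used as the limit for a count of 0, corresponds to 0.0313 CPM with both proteins, 0.0223 CPM with ADAR2 and 0.0194 CPM in the control.

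The 2 measured copies of MT-ATP8 differed from each other. Per 1000 reads of MT-ATP8, a subunit of ATP synthase, MTATP8P1 had 1.77 reads with both proteins, 4.0 with ADAR2 and 3.74 in the control. MTATP8P2 had 9.27, 8.25 and 10.1. The log2 ratio of both proteins over ADAR2 on this scale was -1.18 for MTATP8P1 and 0.17 for MTATP8P2. MTATP8P1 rests on 107 reads in the library with both proteins, and the difference between the copies was not tested. Copies of other genes lay closer on the same scale: -0.52 for MTND4P12 and -0.56 for MTND4P24 per MT-ND4 read, and -0.51 for MTND6P4 and -0.59 for MTND6P3 per MT-ND6 read. Per MT-ATP6 read MTATP6P1 was at -0.27 and MTATP6P2 at -0.77.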
